A study of Homo sapiens with 8 samples.

Results

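ATF4 and 9 genes that act with it in the integrated stress response (ATF3, DDIT3, TRIB3, CHAC1, SESN2, ASNS, CEBPB, PPP1R15A and DDIT4) were followed in LX-2 cells after inhibition of O-GlcNAc transferase (OGT). The 10 genes were taken by symbol from the 16796 genes of the count files, and all 10 were measured. LX-2 is an immortalized human line of hepatic stellate cells in the myofibroblastic state, OGT adds the sugar O-GlcNAc to proteins inside the cell, and OSMI-1 is a compound that blocks this enzyme. There were 4 libraries of vehicle (DMSO) cells, called control, and 4 of cells given 50 µM OSMI-1 (OGTi), all after 24 h in medium with 5% serum. The libraries of a group were labelled biological replicates of the same line, and no primary cells, other dose or other time entered the comparison.

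In the integrated stress response, kinases that sense amino acid shortage, unfolded protein in the endoplasmic reticulum (ER), double-stranded RNA or heme and mitochondrial stress phosphorylate the translation initiation factor eIF2. Most translation then slows, while a few messages with upstream reading frames in their leaders, ATF4 among them, are translated better. ATF4 is a bZIP transcription factor that turns on genes of amino acid supply, redox balance, growth control and, when stress lasts, cell death. Messenger RNA was measured here, and neither eIF2 phosphorylation nor protein.

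ATF4 binds DNA in pairs with C/EBP proteins at a composite site, the C/EBP-ATF response element, written here as TGATGNAAN with N for any base. Both strands were searched from 1000 bases before to 50 after each start site in the RefSeq promoter table (GRCh38.p14), and 7 of the 10 genes held a match, against 15.6% of the 27305 genes with a start site. Within the nearer window of 250 bases before to 50 after, 3 of the 10 (ATF3, CHAC1 and ASNS) held it, against 4.45% of genes. The matches are shown because they carry the letters ATF4 is known to read and differ between these genes, each written 5′ to 3′ on the strand of the gene with the matching letters in capitals.
ASNS, chr7:97872468-97872476: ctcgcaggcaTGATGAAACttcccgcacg
CHAC1, chr15:40953261-40953269: ctcccctgccGTTGCATCActcctgccag
DDIT3, chr12:57520813-57520821: gttgccaaacATTGCATCAtccccgcccc
TRIB3, chr20:380891-380899: ttagctccggTTTGCATCAcccggaccgg
SESN2, chr1:28259221-28259229: gtgaagtcccTTTTCATCAcgcaacccta
DDIT4, chr10:72272978-72272986: tcctcggtccTGATGCAACcgtctggatc
ATF3, chr1:212565216-212565224: aaggtcaggaTGATGGAAGgctgtcatat

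The ASNS site lay 68 bases before the nearest start site, CHAC1 210, ATF3 191, SESN2 297, DDIT3 304 and DDIT4 946. TRIB3 held the same letters 3 times, 338, 371 and 404 bases before its nearest start site, and ASNS had another match 886 bases before. In CHAC1, DDIT3, TRIB3 and SESN2 the match read on the opposite strand from the gene. In the GENCODE annotation the SESN2, DDIT4 and ATF3 sites lay upstream of every coding transcript of their gene. The DDIT3 site lay in an intron of 1 longer transcript, and the ASNS, CHAC1 and TRIB3 sites lay in an untranslated exon of transcripts that begin further upstream. ATF4, CEBPB and PPP1R15A had no match in this window.

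PPP1R15A held instead the cyclic AMP response element TGACGTCA, a palindrome bound by ATF and CREB proteins, 58 bases before its start site and in an untranslated exon of 1 of its coding transcripts. ATF3 held the same letters before its second listed start site, in an intron of its longer transcripts. These letters occurred in the 1000-base windows of 3.02% of genes. Only the listed RefSeq start sites were searched for either element, so a start site of ATF3 or another gene outside that list was missed. Which start sites LX-2 cells use was not measured.
PPP1R15A, chr19:48872363-48872370: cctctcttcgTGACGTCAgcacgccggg
ATF3, chr1:212614521-212614528: agtttcagctTGACGTCAagcctctttg

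The ER stress response element, the site of the ATF6 arm, was searched as exact letters (CCAAT and CCACG with 9 bases between them). It occurred in none of the 10 genes and in 0.154% of all genes. Near matches were not counted in any gene. DDIT3 held CCAAT and CCACT with 9 bases between them, which differs in the last letter. A match is a run of letters and not evidence of binding, which was not measured here.

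**Figure D1:**
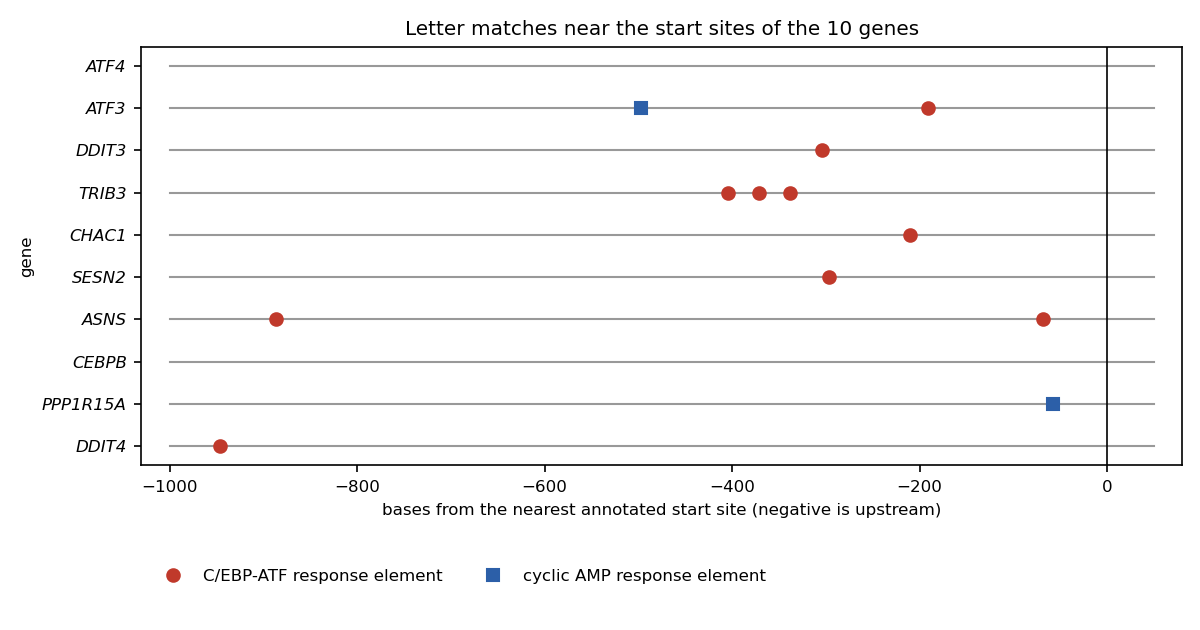
Positions of the letter matches (circles, C/EBP-ATF response element; squares, cyclic AMP response element) relative to the nearest RefSeq start site of each gene, in bases, over a window of 1000 bases before to 50 after, drawn as a grey line. The ASNS, CHAC1 and ATF3 circles nearest to the start lie at -68, -210 and -191, the TRIB3 circles form a row of 3, and the lines of ATF4 and CEBPB are empty.

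The leaders of the messages differed as well. The canonical ATF4 transcript had 3 ATG triplets in a leader of 282 bases and that of DDIT3 had 3 in 177, a number reached by 14.2% of coding genes. TRIB3 and PPP1R15A each had 2, SESN2 had 1, and ATF3, CHAC1, ASNS, CEBPB and DDIT4 had 0, where the median coding gene had 0 in 132 bases. Changes in translation through these triplets are not seen in counts of RNA.

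OGTi raised 8 of the 10 genes and lowered none. Differences were tested with the paired model of DESeq2 over all genes, and a gene was called when its adjusted p-value (q) was 0.05 or lower. Of the 14028 genes with a q, 46.6% were called, 22.7% higher and 24.0% lower in OGTi, so a called gene by itself was common in this comparison. All 4 OGTi libraries lay above all 4 controls for 8 of the 10 genes, against 19.8% of all genes, and 9 of the 10 were higher in each of the 4 pairs, against 29.2%. Of the 40 comparisons of a gene within a pair, 39 were higher in OGTi. They come from the same 4 pairs and are not independent, and the genes were chosen with earlier results of these data known. The median log2 fold change (log2 FC) of the 10 genes was 0.99 and the called genes ranged from 0.72 to 1.57, while the median over all genes was 0.00 and the median size of change of called genes was 0.52. The exceptions were ATF3 and TRIB3, whose groups overlapped.

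The libraries held 24166756 to 28201215 counts, and values below are normalized counts, that is, counts divided by a size factor between 0.87 and 1.094. The markers of the labelled cell type were present, with PDGFRB at 1957 to 2564 and COL1A1 at 80369 to 92289 in control libraries, while DES, LRAT and HAND2, markers of quiescent or lineage stellate cells, were at or near 0 (at most 5.75). All 9 stellate and mesenchymal markers were in the files, and their sum was 179324 to 205662 in control and 134604 to 158654 in OGTi libraries. In OGTi libraries PDGFRB was at 1099 to 1311 and COL1A1 at 38220 to 48489, both below all controls. COL1A2 and RELN were also below all controls, while THY1 overlapped. VIM, a large part of the sum, overlapped too (81899 to 101437 in control and 79105 to 109557 in OGTi). Markers of other cells were low: sums in control and OGTi libraries were 19.5 to 74.0 and 26.0 to 74.0 for hepatocytes (2 of 5 in the files, APOA1 at or near 0), 70.5 to 143 and 36.2 to 77.1 for epithelia (3 of 4), and 49.7 to 91.1 and 17.0 to 33.8 for endothelium (4 of 4). The leukocyte sum (3 of 4 markers) moved with treatment, from 2477 to 4080 up to 5605 to 9390, nearly all of it CD68, a lysosomal protein, whereas the defining leukocyte gene PTPRC stayed at 11.5 or below, and the part of CD68 in the results was not tested. In RNA from whole cultures, fewer cells with a message and less message per cell cannot be told apart.

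ATF4 (chr22:39519695-39522683) led the set in level per transcript length. It had 6791, 7343, 6361 and 6817 normalized counts in control replicates 1 to 4 and 9942, 13492, 12267 and 9729.6 in OGTi replicates 1 to 4. Every OGTi library lay above every control, and replicates 2 and 3 stood higher than 1 and 4 after treatment. The means were 6828 ± 402 and 11358 ± 1829 (SD, n = 4 each), a 1.65-fold rise (log2 FC 0.72 ± 0.08 SE, q = 2.1e-16), the smallest among the 8 called genes. ATF4 had fractional counts in 6 of the 8 libraries, which means that some of its reads also aligned elsewhere and were shared out by the authors' counting.

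Among the transcription factors that lie below ATF4, DDIT3 had the largest log2 FC, an order that was not tested. DDIT3 (chr12:57516588-57521737) encodes CHOP, a C/EBP family protein that is a target of ATF4 and promotes cell death under lasting ER stress. DDIT3 had 619, 677, 410.3 and 660.5 normalized counts in the controls and 1246, 1729.7, 1722 and 1233 in OGTi. The groups were far apart, with a wide gap between the highest control and the lowest OGTi library. Its log2 FC was 1.33 ± 0.26 (95% interval 0.82 to 1.84, q = 1.55e-06), a 2.51-fold rise.

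CEBPB (chr20:50190830-50192668), a C/EBP factor that pairs with ATF4 on the composite element, also rose. CEBPB had 2739.5, 3199.6, 2068.5 and 2701 normalized counts in the controls and 4606, 5099, 5184 and 4170.1 in OGTi, without overlap. The rise was 1.79-fold (log2 FC 0.84 ± 0.10, q = 6.68e-15).

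ATF3 (chr1:212565334-212620777), a stress-inducible factor that can repress or activate with other bZIP proteins, did not pass the test. ATF3 had 535, 603, 495 and 534 normalized counts in the controls and 545, 733, 646 and 615 in OGTi. OGTi replicate 1 lay below control replicate 2, and the gain in pair 1 was close to nil (log2 ratio 0.03). The log2 FC was 0.22 ± 0.11 (95% interval 0.00 to 0.45, q = 0.0961). With the quasi-likelihood test of edgeR in the same paired design ATF3 passed narrowly (log2 FC 0.22, q = 0.0494), where 23.4% of 14895 genes were called higher.

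2 of the 10 genes feed back on the response. PPP1R15A (GADD34, chr19:48872212-48876059), the inducible subunit that brings protein phosphatase 1 to eIF2 and reverses its phosphorylation, had the smallest standard error of the set. PPP1R15A had 6406, 7454, 7190.4 and 7892 normalized counts in the controls and 13177, 16003, 15330.2 and 12624.5 in OGTi. The fold change was 1.97 (log2 FC 0.98 ± 0.08, q = 6.97e-32), with pair ratios from 0.68 to 1.10 on the log2 scale.

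TRIB3 (chr20:362835-397559), a pseudokinase induced by ATF4 and CHOP that in turn restrains ATF4, was the only member to fall in any pair. TRIB3 had 1758, 2423, 1417 and 2008 normalized counts in the controls and 1495, 3308, 3222.5 and 2288 in OGTi. The pairs disagreed: the log2 ratio was -0.23 in pair 1, 0.45 in pair 2, 1.19 in pair 3 and 0.19 in pair 4. The modelled log2 FC was 0.39 ± 0.29 (95% interval -0.18 to 0.97, q = 0.273), so neither no change nor a rise like that of CEBPB lay outside its interval. Under edgeR with the paired design it passed (log2 FC 0.40, q = 0.0227), and its coefficient of variation was 22.3% in control and 33.3% in OGTi libraries, against 5.89% and 16.1% for ATF4.

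Both metabolic targets rose. ASNS (chr7:97851677-97872542), the asparagine synthetase whose upstream match is shown above, had 1476, 1681, 1080.2 and 1148 normalized counts in the controls and 2272, 3369, 2815 and 2525 in OGTi. The groups did not overlap, and the rise was 2.05-fold (log2 FC 1.03 ± 0.11, q = 1.87e-20). ASNS had fractional counts in 7 libraries and so, like ATF4, shared reads with other loci.

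CHAC1 (chr15:40952962-40956512), an enzyme that breaks down glutathione, had 543, 447, 249 and 332 normalized counts in the controls and 705.5, 811, 1028 and 656 in OGTi. All OGTi libraries were above all controls, but the controls varied among themselves, with a coefficient of variation of 32.8%. The rise was 2.08-fold (log2 FC 1.06 ± 0.35, q = 0.0072). Without replicate 4 it no longer passed (log2 FC 1.08, q = 0.0668), the only member whose call was lost on leaving out a pair.

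SESN2 and DDIT4 restrain the growth kinase complex mTORC1. SESN2 (chr1:28259518-28282491), a leucine sensor that acts through the GATOR complexes, had 1428, 1543, 1288 and 1578 normalized counts in the controls and 2490.3, 2938, 3527 and 2835 in OGTi. The groups were separated by a wide gap and the rise was 2.01-fold (log2 FC 1.01 ± 0.10, q = 1.65e-20).

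DDIT4 (REDD1, chr10:72273919-72276036), which acts through the TSC complex, showed the largest fold change of the set from the lowest level. DDIT4 had 162, 170.0, 70.1 and 126 normalized counts in the controls and 268, 395, 561 and 343 in OGTi. Control replicate 3 was the lowest and OGTi replicate 3 the highest of the 8, and the groups did not overlap. The rise was 2.97-fold (log2 FC 1.57 ± 0.46, 95% interval 0.67 to 2.48, q = 0.00214). The lowest value rested on 61 counts (95% Poisson interval 46.7 to 78.4, which covers counting error only), so counting error was smaller than the distance to the next control.

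**Figure D2:**
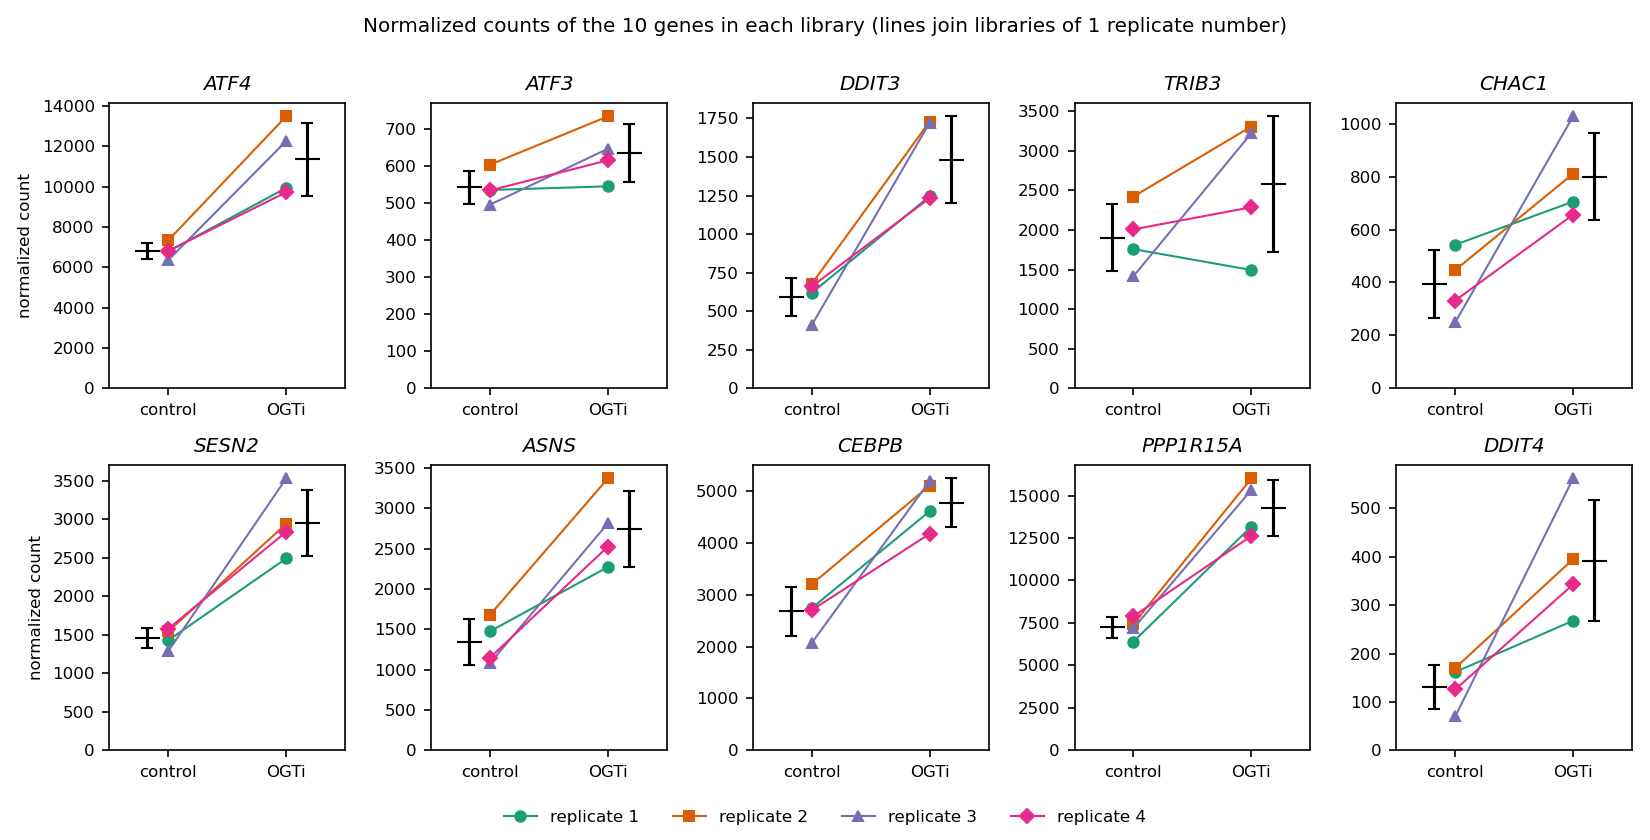
Normalized counts (y axis, from 0, a scale for each panel) of the 10 genes in the control and OGTi libraries, with lines joining the libraries of 1 replicate number and black bars for mean ± SD of 4 libraries. The groups separate in 8 panels and overlap for ATF3 and TRIB3, and the lines of replicate 3 are the steepest in most panels.

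Pair 3 gave the largest ratio for 9 of the 10 genes, the exception being PPP1R15A, whose largest ratio was in pair 2. Among all 3181 genes called higher, pair 3 was the largest for 33.4%. In the same 9 genes control replicate 3 was the lowest of the controls, against 38.2% of genes called higher. The ratios were therefore uneven between pairs. The DDIT4 ratio was 2.98 in pair 3 and 0.72 to 1.44 in the others, DDIT3 had 2.07 against 0.90 to 1.35, and CHAC1 had 2.04 against 0.38 to 0.98, all on the log2 scale. Pairs follow the labelled replicate numbers. Over 10994 genes, deviations from the group mean in control 3 were less like those of OGTi 3 (r = 0.165) than of OGTi 4 (0.343).

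**Figure D3:**
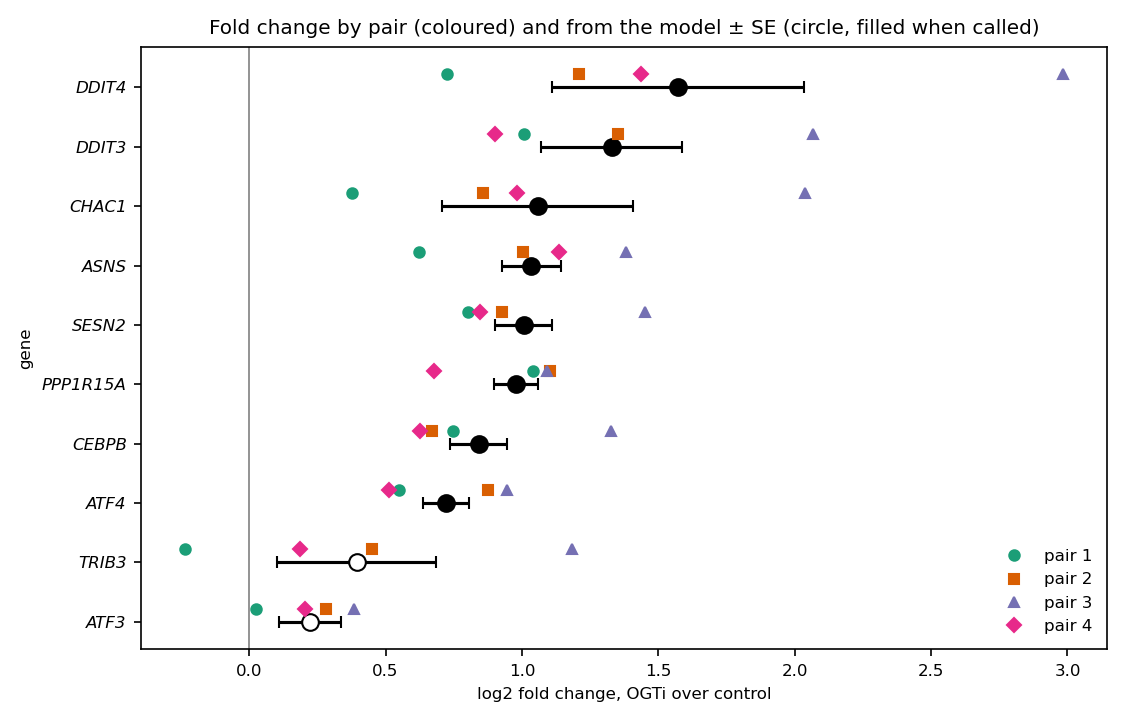
Log2 FC of OGTi over control (x axis) for the 10 genes, as the ratio in each of the 4 pairs (coloured symbols) and as the model estimate ± SE (circles, filled when q was 0.05 or lower). Of the 40 pair symbols, 39 lie to the right of 0, and the symbol of pair 3 lies furthest right in 9 rows.

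Without replicate 3, the same 8 genes stayed called and higher, with smaller values and, for the most variable genes, smaller errors. DDIT4 was then 1.12 ± 0.21 (q = 9.8e-07), DDIT3 1.09 ± 0.13 and CHAC1 0.73 ± 0.16 on the log2 scale, while ATF4 was 0.64 and PPP1R15A 0.94. TRIB3 dropped to 0.13 ± 0.12 and ATF3 to 0.17. ATF4, DDIT3, SESN2, ASNS, CEBPB, PPP1R15A and DDIT4 stayed called under each of the 10 alternatives tried.

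**Figure D4:**
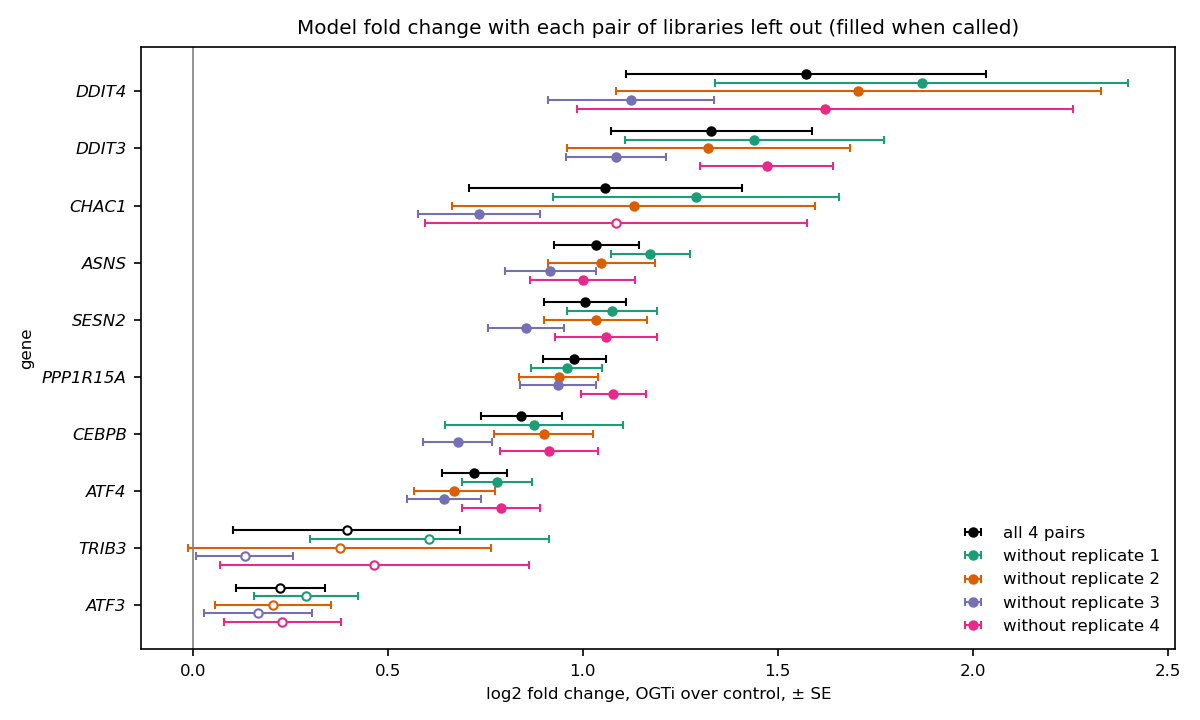
Model log2 FC ± SE (x axis) of the 10 genes from all 4 pairs (black) and with each pair left out (colours), filled when q was 0.05 or lower. The estimates without replicate 3 are the lowest of the 5 for all 10 genes, and the open CHAC1 symbol is the fit without replicate 4.

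Levels were compared between genes as counts per base of the canonical transcript, scaled to the same total in each library over the 15800 genes with a length (TPM). ATF4 led in control cells with 480 ± 30.3 TPM, above 98.04% of genes, followed by PPP1R15A (307.4 ± 27.0) and CEBPB (145 ± 25.5). TRIB3 (80.6 ± 18.3), DDIT3 (65.4 ± 13.4) and ASNS (56.4 ± 12.1) followed with overlapping neighbours, then SESN2 (42.1 ± 3.59). ATF3 (27.9 ± 2.47) and CHAC1 (25.8 ± 8.34) overlapped, and DDIT4 was last with 7.55 ± 2.60, above 42.18% of genes. The set was expressed without the inhibitor, with ATF4 itself and the phosphatase subunit on top.

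In OGTi cells the first 3 kept their places at 824 ± 115, 626 ± 59.0 and 267 ± 21.7 TPM. DDIT3 (169 ± 29.2) and ASNS (119 ± 18) now stood ahead of TRIB3 (113 ± 36.1), although ASNS, TRIB3 and SESN2 (87.9 ± 13.0) overlapped in turn. CHAC1 (54.2 ± 10.9) passed ATF3 (33.7 ± 3.64), and DDIT4 reached 23.2 ± 7.35, which overlapped ATF3.

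Messages for the 4 kinases that phosphorylate eIF2 changed little and in both directions. EIF2AK3 (PERK), the ER stress kinase, had 763, 749, 785 and 778 normalized counts in the controls and 890.1, 985, 957.5 and 983 in OGTi. Its rise was small but clear of the controls (log2 FC 0.31 ± 0.10, q = 0.00402), though without replicate 2 it did not pass (0.28, q = 0.0608). EIF2AK4 (GCN2), the kinase of amino acid shortage, fell from 2634.5 ± 158 to 2086 ± 56.9 with all OGTi libraries below all controls (log2 FC -0.34 ± 0.08, q = 9.58e-05). EIF2AK1 (HRI), of heme and mitochondrial stress, had a log2 FC of 0.15 ± 0.07 (q = 0.0632), and EIF2AK2 (PKR), of double-stranded RNA, -0.13 ± 0.10 (q = 0.277). Neither passed, and kinase activity was not measured.

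Of the list of 10 kinases and regulators, 2 rose, 3 fell and 5 did not pass, with a median log2 FC of -0.02. Over all genes 22.7% rose and 24.0% fell. DNAJC3, an ER co-chaperone that inhibits PERK and PKR, fell (log2 FC -0.44 ± 0.09, q = 1.13e-05). The other riser was OMA1, the mitochondrial protease of the HRI branch (log2 FC 0.68 ± 0.26, q = 0.0198), and the remaining gene that fell was its substrate DELE1 (log2 FC -0.20 ± 0.08, q = 0.0376). The DELE1 call was lost on leaving out any single pair (q 0.0788 to 0.266), and the OMA1 call without replicate 3 (q = 0.161) or 4 (q = 0.117). GCN1, IMPACT and PRKRA, regulators of GCN2 and PKR, did not pass, and these 5 were chosen after their values were seen.

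Of 13 genes for eIF2, its exchange factor eIF2B and the phosphatase, 3 rose, 4 fell and 6 did not pass. The shares of all genes were 22.7% higher and 24.0% lower. EIF2S2, the beta subunit of eIF2, rose (log2 FC 0.32 ± 0.07, q = 5.22e-05). Both PPP1CC (log2 FC -0.29 ± 0.08, q = 0.000366) and PPP1CB (-0.27 ± 0.08, q = 0.00202), catalytic subunits of protein phosphatase 1, fell. The catalytic subunits went down while PPP1R15A, their eIF2-directed partner, rose. The others called, named after their values were seen, were EIF2B1 and EIF5 (higher, 0.20 and 0.19) and EIF2S3 and PPP1CA (lower, -0.23 and -0.20). Each of these 4 calls was lost on leaving out 1 or another pair, with q up to 0.205, 0.194, 0.0697 and 0.134 in that order. Without replicate 2, PPP1CB did not pass (-0.23, q = 0.0543).

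The wider set of known ATF4 targets moved in the same direction as the 10 genes in most, but not all, of its branches. Of the 53 genes with a q in 4 target lists, 34 rose (22.7% of all genes did), 7 fell and 12 did not pass, and the median log2 FC was 0.39. The lists share no gene with the 10. They were chosen with earlier results of these data known, so the contrast with all genes is not an independent check.

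Aminoacyl-tRNA synthetases, which charge tRNA with amino acids, were the most uniform list. Of 13 genes, XPOT of tRNA export included, 12 rose and none fell, with a median log2 FC of 0.36. The shares of all genes were 22.7% higher and 24.0% lower. AARS (log2 FC 1.03 ± 0.08, q = 3.79e-36), SARS (0.71 ± 0.07, q = 1.56e-20) and CARS (0.67 ± 0.10, q = 3.74e-10) led, for alanine, serine and cysteine. The exception was LARS, for leucine, at 0.12 ± 0.08 (q = 0.189), which was chosen after its value was seen. Also named after their values were seen, EPRS and NARS rose by 0.20 and 0.24. The EPRS call was lost without replicate 2, 3 or 4 (q 0.0836 to 0.158) and that of NARS without replicate 4 (q = 0.0513).

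Of 13 genes of amino acid synthesis and one-carbon metabolism, 8 rose, 2 fell and 3 did not pass, with a median of 0.43. The shares of all genes were 22.7% higher and 24.0% lower. PCK2, the mitochondrial phosphoenolpyruvate carboxykinase, doubled from 1405 ± 303 to 2838 ± 444 normalized counts (log2 FC 1.03 ± 0.12, q = 9.97e-18). PHGDH, which opens serine synthesis, rose from 5950 ± 1202 to 9930.0 ± 1673 (log2 FC 0.75 ± 0.09, q = 4.02e-15). The serine branch and the proline branch parted: ALDH18A1, the first step of proline synthesis, fell from 1473 ± 64.0 to 856 ± 54.1 (log2 FC -0.78 ± 0.09, q = 4.06e-17). The other gene that fell was PYCR1, the last step of the same pathway (log2 FC -0.35 ± 0.09, q = 0.000575), chosen after its value was seen, as were GPT2, GOT1 and CBS, which did not pass. Also named after their values were seen, PSAT1 and PSPH of the serine branch rose (0.56 and 0.40). The PSPH call was lost without replicate 2, 3 or 4 (q 0.125 to 0.185) and that of PSAT1 without replicate 4 (q = 0.133).

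Amino acid uptake was split. Of 10 genes 8 had a q, of which 3 rose, 3 fell and 2 did not pass, with a median of 0.11. Among all genes 22.7% rose and 24.0% fell, so calls in both directions were common. SLC3A2, the heavy chain shared by several amino acid exchangers, had 3680, 3866, 3464 and 3922 normalized counts in the controls and 13205, 14630.0, 12636 and 13136 in OGTi. Its log2 FC of 1.84 ± 0.07 (q = 3.76e-167) was above the 1.57 of DDIT4, a difference that was not tested. SLC1A5, a glutamine transporter, rose as well (0.76 ± 0.07, q = 6.7e-25), whereas SLC38A2, a neutral amino acid transporter induced by amino acid shortage, fell (-0.65 ± 0.08, q = 2.51e-14). Named after their values were seen, SLC1A4 also rose (0.23), SLC7A1 and SLC7A5 fell (-0.32 and -0.28), and SLC7A11 (0.39 ± 0.21, q = 0.117) and SLC43A1 (-0.01 ± 0.15, q = 0.982) did not pass. The SLC1A4 call was lost without replicate 2, 3 or 4 (q 0.0542 to 0.391) and that of SLC7A5 without replicate 4 (q = 0.0711).

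Of 22 targets of ATF4 and CHOP in stress and growth control, 19 had a q, of which 11 rose, 2 fell and 6 did not pass. Their median was 0.62, and among all genes 22.7% rose and 24.0% fell. SQSTM1, the autophagy receptor p62, which NRF2 also controls, rose from 8368 ± 712 to 23621 ± 842 normalized counts (log2 FC 1.5 ± 0.07, q = 2.66e-100). BCL2L11, the cell death protein BIM and a CHOP target, rose from 359 ± 33.6 to 1122 ± 76.7 (log2 FC 1.64 ± 0.11, q = 8.94e-50), and FAM129A (NIBAN1) rose by 0.79 ± 0.07 (q = 3.53e-27). All OGTi libraries lay above all controls for these 3 genes. The 6 that did not pass were CEBPG and, named after their values were seen, GDF15, VLDLR, GADD45A, STC2 and INHBE. Their log2 FC was 0.16 for VLDLR, 0.01 for GADD45A, -0.02 for STC2 and -0.40 for INHBE. GDF15 had 1.66 ± 0.77 (q = 0.0647) without overlap, from few counts (means 4.69 and 13.8). The call of ERO1A, a riser, was lost without replicate 4 (q = 0.218). The 2 that fell, ATF5 and JDP2, are bZIP factors and paralogs described next.

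**Figure D5:**
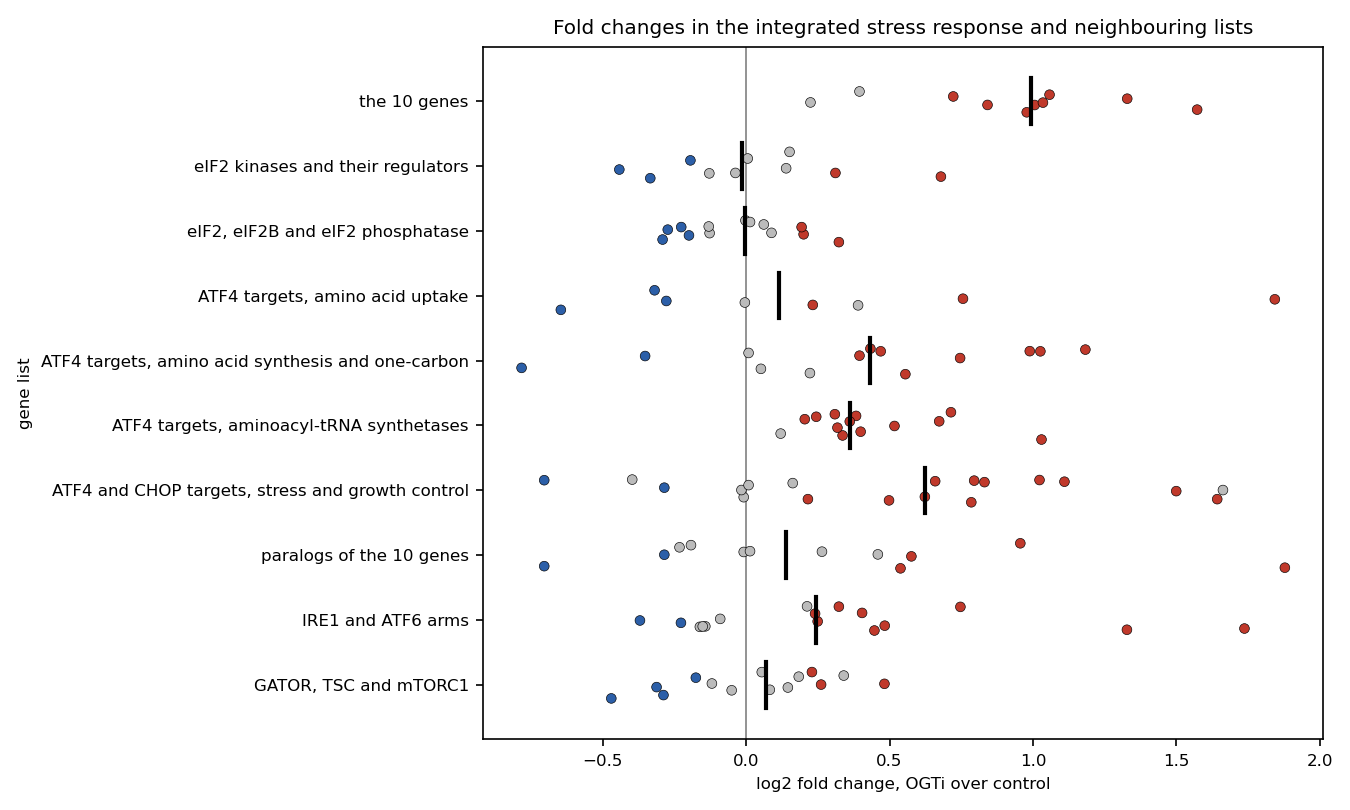
Log2 FC of OGTi over control (x axis) of the 10 genes and of each gene list, 1 point for each gene with a q (red, called higher; blue, called lower; grey, not called; vertical scatter has no meaning) and a black bar at the median. The medians are 0.99 for the 10 genes and 0.36 for the synthetases, and near 0 for the kinases and for eIF2 and eIF2B.

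The closest relatives of the 10 genes did not follow them as a group. Of 12 paralogs, 4 rose, 2 fell and 6 did not pass, and the median log2 FC was 0.14. Over all genes 22.7% rose and 24.0% fell.

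Among the sestrins, SESN3 had 28.2, 37.6, 25.3 and 42.6 normalized counts in the controls and 117, 137, 114 and 118 in OGTi, a 1.88 ± 0.28 rise on the log2 scale (q = 2.27e-10). SESN1 rose less (0.58 ± 0.16, q = 0.00132), so all 3 sestrins were higher. Among the tribbles, TRIB1 rose (0.96 ± 0.14, q = 3e-10) and TRIB2 rose less (0.54 ± 0.21, q = 0.0244), a call that was lost on leaving out any single pair (q 0.0603 to 0.159). TRIB3 itself did not pass, and the difference between the 3 tribbles was not tested.

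The bZIP relatives went down or did not pass. ATF5, like ATF4 a factor under translational control, fell (-0.29 ± 0.09, q = 0.00395, though q = 0.0576 without replicate 1), and JDP2, the relative of ATF3, fell (-0.70 ± 0.13, q = 4.67e-07). CEBPG, the C/EBP partner of ATF4 without an activation domain, stood at -0.01 ± 0.10 (q = 0.954). CEBPD had -0.23 ± 0.20 (q = 0.345), and CEBPA was barely expressed at a mean of 8.17 normalized counts in control and 9.31 in OGTi. Of the C/EBP genes looked at, CEBPB and DDIT3 were the ones called.

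PPP1R15B, the constitutive counterpart of PPP1R15A, stayed level with 1126 ± 91.4 normalized counts in control and 1135 ± 52.7 in OGTi (log2 FC 0.01 ± 0.09, q = 0.921). CHAC2 had 0.46 ± 0.25 (q = 0.126) and DDIT4L, the relative of DDIT4, -0.19 ± 0.34 (q = 0.684).

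The PERK branch of the ER stress response runs through ATF4, and its other arms run through IRE1 and ATF6. Of 16 genes of these arms, 9 rose, 2 fell and 5 did not pass, with a median log2 FC of 0.24. The shares of all genes were 22.7% higher and 24.0% lower. DNAJB9, an ER co-chaperone of the IRE1 arm, rose from 228 ± 27.0 to 761.5 ± 99.8 normalized counts (log2 FC 1.74 ± 0.13, q = 1.82e-37). ERN1, which encodes IRE1, rose (1.33 ± 0.12, q = 9.27e-27), as did MANF, a secreted ER stress protein (0.75 ± 0.09, q = 5.7e-17). XBP1, the message spliced by IRE1, stood at -0.14 ± 0.10 (q = 0.237), chosen after its value was seen, and its splicing is not resolved by gene counts. PDIA6 (-0.23) and SDF2L1 (-0.37), both of protein folding in the ER, fell, and DNAJB11, CRELD2, SEL1L and CALR did not pass, all named after their values were seen. The SDF2L1 call was lost on leaving out any single pair (q 0.0501 to 0.179). Also named after their values were seen, HSPA5 (0.48), PDIA4 (0.45), HYOU1 (0.40), ATF6 (0.32), HSP90B1 (0.25) and EDEM1 (0.24) rose. The EDEM1 call was lost without replicate 1, 3 or 4 (q 0.0837 to 0.193).

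Of 14 genes of the GATOR, TSC and mTORC1 complexes on which SESN2 and DDIT4 act, 3 rose, 4 fell and 7 did not pass. Their median was 0.07, and over all genes 22.7% rose and 24.0% fell. SEH1L, a subunit of GATOR2 to which sestrins bind, fell (-0.47 ± 0.09, q = 6.58e-07). NPRL2, of the inhibitory GATOR1 complex, rose (0.48 ± 0.10, q = 1.86e-05), and RHEB, the activator of mTORC1, fell (-0.29 ± 0.07, q = 0.000252). The other changed genes, named after their values were seen, were TSC1 and TSC2 (higher, 0.26 and 0.23), which form the complex through which DDIT4 acts, and MLST8 and SEC13 (lower, -0.31 and -0.18). The SEC13 call was lost on leaving out any single pair (q 0.0721 to 0.249), TSC1 without replicate 1 or 4 (q = 0.111 and 0.0924) and TSC2 without replicate 3 (q = 0.154).

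The genes whose levels ran most like ATF4 over the 8 libraries, by Pearson r of log2 values among the 10994 genes averaging 100 or more normalized counts, were MICALL2 (r = 0.995), MSX2 (0.993) and RITA1 (0.993). DDIT3 ranked 54 in this list (r = 0.972), PPP1R15A 65 and ASNS 104. CEBPB ranked 183, SESN2 195, DDIT4 532, CHAC1 910, ATF3 1271 and TRIB3 2520 (r = 0.713). For DDIT3 the first 3 were SLC25A38 (r = 0.994), KLF2 (0.990) and THEM6 (0.990), and CEBPB ranked 7 (r = 0.988), SESN2 46 and ATF4 61. The 8 points form 2 treatment groups, so r is high for genes that separate the groups in the same direction.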

How the data were processed

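RNA of LX-2 cells was sequenced as stranded, oligo dT selected libraries (4 control, 4 OGTi). The authors aligned reads to hg38 with Bowtie2 2.3.5.1 and deposited RSEM 1.3.1 expected counts, in which reads with several alignments are shared between genes, unscaled for depth (24166756 to 28201215 counts per library). A deposited DESeq2 1.36.0 comparison table (mean, log2 fold change, its error, a Wald score and p-values) was not used. Groups came from the sample titles.

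Expected counts were rounded, and the 14895 genes with a total of at least 10 were tested with the Wald test of DESeq2 1.42.0 (R 4.3.3), with median-of-ratios size factors, replicate number as a block, independent filtering and no shrinkage, called at q of 0.05 or lower. The block follows the study's methods. Deviations from the group means of same-numbered libraries correlated in all 4 pairs (Pearson r 0.372, 0.391, 0.165 and 0.327 over 10994 genes). Control replicate 3 was closer to OGTi replicate 4 (0.343), and OGTi replicate 3 to control replicate 4 (0.255), than to each other. The numbering of pairs 3 and 4 therefore rests on the labels. edgeR 4.0.16 with TMM (with and without the block), DESeq2 without the block, TMM factors in DESeq2, other count filters and leaving out each pair were the alternatives. The fit was tried on simulated counts with 200 genes changed and no replicate effect. In the data 46.6% of genes were called and replicates were blocked, so that simulation does not gauge the fit in this setting. Pair ratios used a pseudocount of 1. Fold changes and intervals are from the model.

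The members and lists were chosen with earlier results of these data known. Named were the 10 genes, their 12 paralogs, the 4 eIF2 kinases, in each other list the 3 called genes with the largest absolute Wald statistic, and the 3 genes most like ATF4 and DDIT3. Lists were described by counts and medians over genes with a q. FGF21 was not analysed here, and ADM2 was below the filter. Positions, lengths and leaders came from GENCODE 44, and 15800 genes had a length. Promoter windows came from RefSeq, and 35116 of 35116 were identical in hg38.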

Additional observations from a re-analysis of the deposited data

Results flagged for a closer look

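No value of the 10 genes stood apart from its group. Among the other named genes, 4 values in 3 libraries lay far from the rest of their group, and the gap to the nearest library was above Dixon's 95% limit for 4 values. SLC1A5 had 12949.7 normalized counts in control replicate 2 and 10847.1 to 11107 in the other controls, all below the OGTi libraries. SQSTM1 had 22371 in OGTi replicate 1 against 23908 to 24193 in the others. TRIB1 had 788 in OGTi replicate 1 against 563.5 to 600.0. MANF had 2079.9 in control replicate 1 against 1549 to 1631. Of 96 groups tested, chance alone would mark about 4.8.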

How the results depend on the processing

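Of 210 counts of called genes (21 counts under 10 alternatives), 194 were within 1.5 times the reported count. All genes called numbered 5127 to 7074, and members called 7 to 10, with 8 under each of the 10 alternatives except edgeR with the block (10) and without replicate 4 (7). Without the replicate block DESeq2 called 6307 genes, and of the 13 eIF2 and eIF2B genes 1 rather than 3 was higher. That list also gave 1 higher and 2 rather than 4 lower under edgeR without the block. The block changed no call of the 10 genes under DESeq2. With 1 pair left out, that list had 1 to 3 genes higher and 2 to 3 lower, the kinase list 1 to 3 higher and 2 rather than 3 lower, and the stress list, the paralogs and the IRE1 and ATF6 list 1 to 2 lower each. Directions that turned on leaving out a pair belonged to genes that were not called: CEBPG (-0.097 to 0.062 over the 4 fits with a pair left out), PPP1R15B (-0.014 to 0.031) and CEBPA (-0.696 to 1.125). EIF2AK1 passed without replicate 1 (0.18, q = 0.041). The cause of these changes was not tested. A single dose, time and line limit the comparison, and CEBPA had few counts.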
